A study of Drosophila melanogaster with 18 samples.

Results

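Chromatin loops found at the same position in 2 or more knockdowns of architectural proteins were examined in BG3 cells, a Drosophila line from the larval central nervous system. The 3 deposited loop lists came from cells labelled BEAF-32 RNAi (1179 loops, called BEAF-32 KD here), Cp190 RNAi Chro RNAi (2154 loops, Cp190 Chro KD) and BEAF-32 RNAi Dref RNAi (787 loops, BEAF-32 Dref KD). A loop was taken as recurrent when its chromosome and the starts of both of its 2 kb anchor bins were identical in at least 1 other list. By that rule 413 of 3634 distinct loops (11.4%) were recurrent. Of these, 73 were in all 3 lists and 340 in exactly 2, and 3221 loops stood in 1 list. The members were thus chosen by the measured positions of loop calls made from these Hi-C contacts, so the overlap, the contact values and the distances between anchors are given as a description and without a test.

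The 3 knockdowns were made by transfecting BG3 cells with 50 µg of double-stranded RNA against BEAF-32, against Cp190 and Chro, or against BEAF-32 and Dref, and harvesting them after 72 hours. Each loop list was called on 2 merged Hi-C replicates, so no list has an error of its own. RNA-seq was available for the 3 knockdowns and for WT BG3 cells, with 3 libraries each and 7178403 to 12202598 counts in genes per library. The sources used here do not say whether WT cells received a control double-stranded RNA. Hi-C of WT cells was not analysed here, so a recurrent loop is not known from these lists to be present or absent in WT. RNAi lowers a transcript and does not delete the gene, and no label states that the RNA-seq replicates were grown separately, so the tests see only how far these libraries vary, which may be technical. The study's listed alignment commands combine reads of replicates 1 and 2 in replicate 2 of each knockdown, and the deposited counts were used as they are.

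A chromatin loop is a pair of distant sites that meet more often than their surroundings do. In Drosophila, loops join the start of a gene to its body or end, promoters to enhancers, and pairs of sites bound by Polycomb proteins, the repressors that keep developmental genes silent. BEAF-32 and Dref are DNA-binding proteins that recognise related short sequences, Cp190 is a cofactor that binds through such proteins, and Chro (Chromator) is found with them at the borders of topologically associating domains (TADs), the blocks within which contacts are frequent. Loops at Polycomb targets in fly cells often have GAGAG-rich anchors, the sequence read by Trl (the GAGA factor), while Pho, which recruits Polycomb proteins, reads a core of GCCAT.

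Sequences are shown first for anchors at tsh, dac and Kah, the loci of loops in all 3 lists that are described most closely here. The first set comes from the loops that joined tsh, CG11629 and tio, from the CG5888 intron that looped to the start of dac, and from the loop between Hipk and Kah. Each is the 150-base window with most motif matches in its 2 kb anchor bin, in the Release 6 (dm6) genome of RefSeq, read on the + strand from 5′ to 3′. Capitals mark matches of the motifs GAGAG (or CTCTC on the other strand) and CGATA (or TATCG) and GCCAT (or ATGGC).
tsh anchor: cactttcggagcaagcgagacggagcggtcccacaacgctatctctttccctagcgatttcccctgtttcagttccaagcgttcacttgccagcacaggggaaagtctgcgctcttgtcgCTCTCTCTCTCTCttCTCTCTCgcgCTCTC
CG11629 anchor: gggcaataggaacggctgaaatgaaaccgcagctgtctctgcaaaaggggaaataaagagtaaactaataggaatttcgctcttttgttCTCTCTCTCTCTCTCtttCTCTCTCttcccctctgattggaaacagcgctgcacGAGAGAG
tio anchor: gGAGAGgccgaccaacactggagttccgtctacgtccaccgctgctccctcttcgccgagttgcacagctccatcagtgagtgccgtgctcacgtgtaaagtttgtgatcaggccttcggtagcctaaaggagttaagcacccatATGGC
CG5888 anchor: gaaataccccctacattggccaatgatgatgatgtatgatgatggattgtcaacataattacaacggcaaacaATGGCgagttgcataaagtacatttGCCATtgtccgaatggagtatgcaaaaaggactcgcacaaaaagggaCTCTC
Hipk anchor: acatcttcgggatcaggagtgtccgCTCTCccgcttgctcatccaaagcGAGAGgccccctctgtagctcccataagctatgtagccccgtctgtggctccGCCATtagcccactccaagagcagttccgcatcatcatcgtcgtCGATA
Kah anchor: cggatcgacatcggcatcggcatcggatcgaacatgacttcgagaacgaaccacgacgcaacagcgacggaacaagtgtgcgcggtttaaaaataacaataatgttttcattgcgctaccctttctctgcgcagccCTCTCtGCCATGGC
The tsh window (chr2L:21828399-21828548) ended 45 bases upstream of the annotated tsh start and held 8 overlapping matches of GAGAG. The CG11629 window (chr2L:21899386-21899535) lay outside genes, 1097 bases upstream of CG11629, and held 10. The tio window (chr2L:22022038-22022187) was coding sequence of tio and held 1. The CG5888 window (chr2L:16426469-16426618) was intronic, the Hipk window (chr3L:573448-573597) was coding, and the Kah window (chr3L:589612-589761) lay 338 bases upstream of Kah. A match is a run of letters and not a measured binding site.

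A second set shows loops whose anchors share a long identical sequence. At the hairpin RNA genes hpRNA:CR32205 and hpRNA:CR33940, a loop of 64 kb with 22 contacts in BEAF-32 KD and 39 in BEAF-32 Dref KD, the anchors shared an unbroken run of 98 identical bases, at chr3L:19424160-19424257 and chr3L:19488385-19488482. At chr2L:22547235-22547387, in an exon of lncRNA:CR46268, and chr2L:22589183-22589335, outside genes, the shared run was 153 bases on opposite strands. The runs are printed in lower case throughout, since every base of them is shared.
hpRNA:CR32205 run: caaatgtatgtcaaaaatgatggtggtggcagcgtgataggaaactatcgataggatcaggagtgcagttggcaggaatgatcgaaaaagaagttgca
lncRNA:CR46268 run: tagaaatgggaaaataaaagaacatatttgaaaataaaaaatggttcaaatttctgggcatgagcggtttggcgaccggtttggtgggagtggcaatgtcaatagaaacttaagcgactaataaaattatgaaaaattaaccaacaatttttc
A read from such a run has a second equal place in the genome, and the part that this played in those loops was not tested.

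Recurrent loops made up a different share of each list. Loops with both anchors identical numbered 216 between BEAF-32 KD (18.3% of its list) and Cp190 Chro KD (10.0%), 119 between BEAF-32 KD (10.1%) and BEAF-32 Dref KD (15.1%), and 224 between Cp190 Chro KD (10.4%) and BEAF-32 Dref KD (28.5%). Counted without the loops of all 3 lists, these pairs held 143, 46 and 151 loops. The recurrent set therefore held 262 loops of the BEAF-32 KD list, 367 of the Cp190 Chro KD list and 270 of the BEAF-32 Dref KD list. The study writes that unequal sequencing depth could account for loop numbers that differ between its samples. The part of depth in the list sizes and shares given here was not tested.

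Many loops missed the rule by a small shift. Of the loops in 1 list, 464 (14.4%) had both anchors within 1 bin, 2 kb, of a loop in another list, and 791 (24.6%) within 2 bins. Those within 1 bin had a median of 60 observed contacts in BEAF-32 KD, 76.5 in Cp190 Chro KD and 37 in BEAF-32 Dref KD. The recurrent loops themselves had medians of 62, 94 and 42 in the same lists, so loops just outside the rule were close to those inside it.

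Recurrent loops were short. Their median span, the distance between anchor starts, was 20 kb (quartiles 16 and 32 kb), against 30 kb (quartiles 18 and 58 kb) for loops in 1 list. The shortest span in any list was 16 kb. It was the span of 159 recurrent loops (38.5%), of 31 of the 73 loops in all 3 lists (42.5%) and of 641 loops in 1 list (19.9%). A second group lay at 26 to 30 kb, with 67 recurrent loops (16.2%), 17 of those in all 3 lists (23.3%) and 358 of those in 1 list (11.1%). At the far end, 19 recurrent loops spanned 100 kb to under 1000 kb and 15 spanned 1000 kb or more, and the last were 3.63% of recurrent loops against 1.58% of loops in 1 list.

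**Figure D1:**
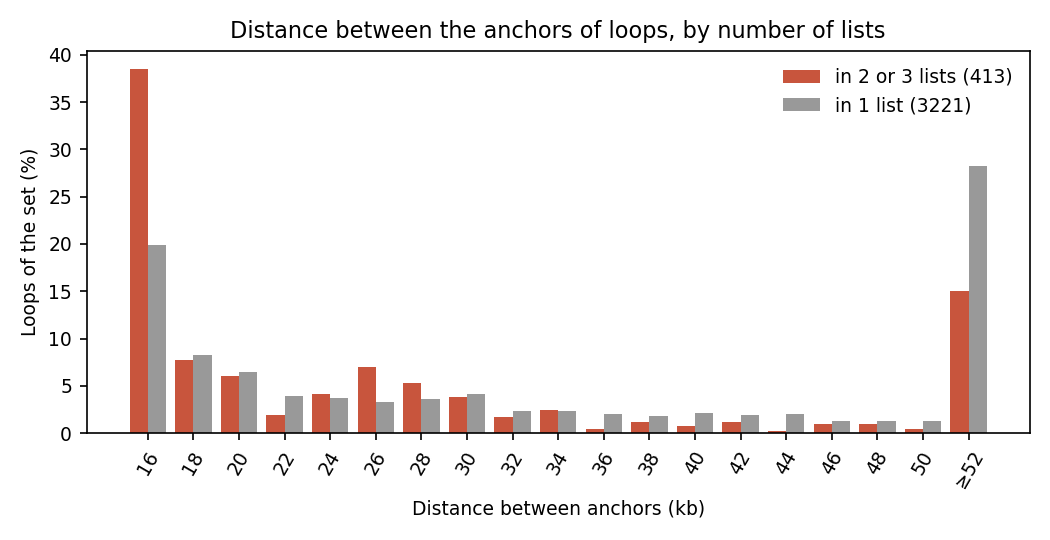
Distance between anchors (kb, in steps of the 2 kb bin) against the percentage of loops at that distance, for the 413 recurrent loops and the 3221 loops in 1 list. The bar at 16 kb holds 38.5% of recurrent loops against 19.9% of loops in 1 list.

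Recurrent loops had more observed contacts than loops in 1 list over all spans, and a similar ratio to the local background. Observed contacts are the read pairs joining the anchor bins, and the background is the value that HiCCUPS expects from the ring of bins around them. In BEAF-32 KD the median was 62 contacts for recurrent loops and 46 for loops in 1 list. In Cp190 Chro KD the medians were 94 and 55 contacts, and in BEAF-32 Dref KD 42 and 34. Observed over expected had a median of 2.84 for recurrent loops and 2.67 for loops in 1 list in BEAF-32 KD, of 2.59 and 2.51 in Cp190 Chro KD, and of 2.98 and 3.02 in BEAF-32 Dref KD.

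Observed over expected of recurrent loops differed with span. It stood far above that of loops in 1 list at 26 to 30 kb and at 100 kb and over. At 16 kb the median of observed over expected for recurrent loops was 2.41 in BEAF-32 KD, 2.27 in Cp190 Chro KD and 2.47 in BEAF-32 Dref KD, with medians of 84, 105.5 and 53 contacts. At 26 to 30 kb the ratios were 6.55, 5.97 and 7.45, while loops in 1 list at that span had 2.86, 2.59 and 3.32. There recurrent loops had fewer contacts, with medians of 30, 50 and 24, against 46, 56 and 34 for loops in 1 list. Most of these recurrent loops were isolated bins. A lone enriched pixel made up the loop in 66.0%, 56.1% and 72.3% of them, against 35.7%, 32.6% and 35.1% of loops in 1 list. At 100 kb and over the recurrent loops had median ratios of 9.65, 19.9 and 21.0, against 3.85, 3.68 and 5.13 for loops in 1 list. Their expected background had lower quartiles of 0.842, 0.189 and 0.0717, against 3.72, 3.70 and 2.73 for loops in 1 list. Many of these ratios thus stand on a background near 0 and are not read as strength.

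Set side by side at the same bins, the knockdowns differed in contacts and in background alike. Across the 216 shared loops the median ratio of Cp190 Chro KD to BEAF-32 KD was 1.38 for observed contacts, 1.45 for the expected background and 0.97 for observed over expected. Across 119 loops the ratio of BEAF-32 Dref KD to BEAF-32 KD was 0.63 for observed contacts, 0.61 for the background and 1.07 for observed over expected. Across 224 loops the ratio of BEAF-32 Dref KD to Cp190 Chro KD was 0.44, 0.40 and 1.10, and observed contacts were lower in BEAF-32 Dref KD at all 224. The read-pair totals of the Hi-C libraries were not used here, so contacts are not compared between lists beyond these ratios.

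**Figure D2:**
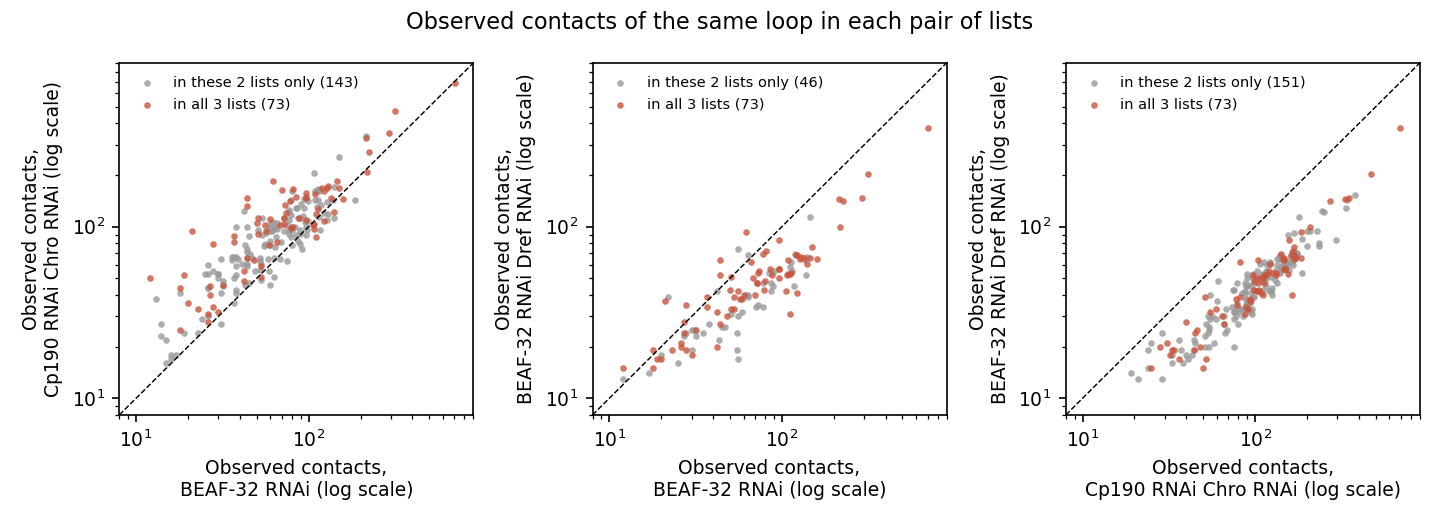
Observed contacts (read pairs, log axes) of the same loop in each pair of lists, 1 point per loop, with the line of equal contacts dashed. In the panel of BEAF-32 Dref KD against Cp190 Chro KD all 224 points lie under the line, with a median ratio of 0.44.

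The recurrent loops were spread over the arms much as all loops were. Chromosome 2L held 71, 2R 80, 3L 110, 3R 112, X 36 and chromosome 4 held 4, while Y held 0 of its 2 loops. As a share of the distinct loops on each, recurrent loops were 10.1%, 11.4%, 12.4%, 11.8%, 10.5% and 9.52%. The 73 loops of all 3 lists were 10 on 2L, 17 on 2R, 22 on 3L, 19 on 3R, 4 on X and 1 on chromosome 4.

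Among developmental loci, the teashirt region was the one where 3 anchors formed a closed triangle with a pair of sides in all 3 lists. tsh and tio encode related zinc finger transcription factors that specify the trunk and take part in eye and leg development, and CG11629 lies between them. The loop from the tsh promoter (chr2L:21828001-21830000) to the tio gene body (chr2L:22022001-22024000) spanned 194 kb and had 106 contacts in BEAF-32 KD, 103 in Cp190 Chro KD and 42 in BEAF-32 Dref KD. Its observed contacts were 6.05, 4.71 and 4.24 times the background. The loop from the CG11629 anchor (chr2L:21898001-21900000) to tio spanned 124 kb, with 88, 112 and 52 contacts at 4.58, 3.97 and 4.16 times the background. The third side, tsh to CG11629 at 70 kb, was in the Cp190 Chro KD list with 134 contacts and in the BEAF-32 Dref KD list with 65, and was not in the BEAF-32 KD list. The tsh and CG11629 windows printed above are the ones with 8 and 10 GAGAG matches.

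**Figure D3:**
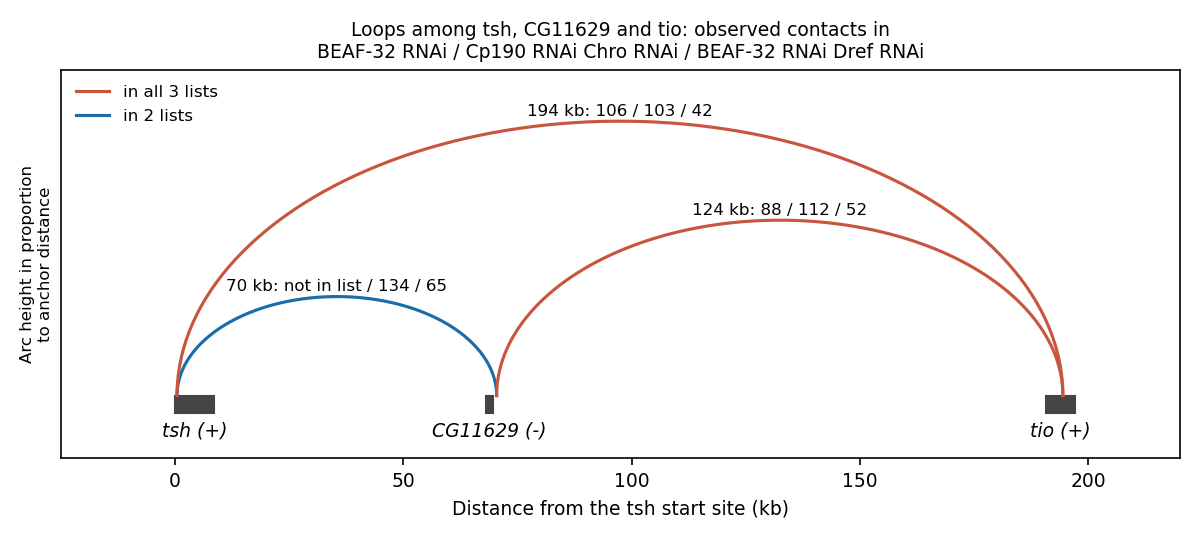
Loops among tsh, CG11629 and tio, drawn to scale from the tsh start site (kb), with arc height in proportion to anchor distance and the observed contacts of the 3 lists on each arc. The 194 and 124 kb loops are in all 3 lists and the 70 kb loop in 2.

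RNA from this triangle was low in every group. tsh had 114, 79 and 24 counts in BEAF-32 KD, 55, 60 and 72 in Cp190 Chro KD, 44, 27 and 39 in BEAF-32 Dref KD, and 40, 41 and 63 in WT. In BEAF-32 KD 2 libraries lay above WT and the third below it. The log2 fold changes against WT were 0.86 ± 0.36, 0.37 ± 0.36 and −0.09 ± 0.37 (SE), with p-values of 0.0825, 0.445 and 0.872 by edgeR's quasi-likelihood test, adjusted by Benjamini-Hochberg over all genes tested, as throughout. Without BEAF-32 KD replicate 3 the first became 1.19, with an adjusted p of 1.21e-05. tio had 0 to 4 counts and CG11629 had 0 counts in each of the 12 libraries.

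A second long loop in all 3 lists ended at dac, which encodes a nuclear cofactor of eye, leg and mushroom body development. It joined an intron of CG5888 (chr2L:16426001-16428000) to the bin with the dac start site (chr2L:16484001-16486000), at 58 kb, with 85, 149 and 57 contacts in BEAF-32 KD, Cp190 Chro KD and BEAF-32 Dref KD. Observed over expected was 3.64, 3.40 and 3.71. RNA of dac was scarce, with 6, 7 and 7 counts in BEAF-32 KD, 3, 4 and 6 in Cp190 Chro KD, 8, 3 and 4 in BEAF-32 Dref KD, and 1, 1 and 2 in WT. The knockdown libraries all lay above the WT libraries. dac rose in BEAF-32 KD (log2 fold change 2.55 ± 0.58, edgeR adjusted p = 0.00615) and in BEAF-32 Dref KD (2.08 ± 0.59, adjusted p = 0.0153), and in Cp190 Chro KD it had 1.59 ± 0.60 with an adjusted p of 0.0697.

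Several other developmental regulators, named here after their values were seen, lay at loops of all 3 lists with RNA at or near 0. Loops ended in the body of pdm2, a POU-domain factor of neuroblast identity (16 kb, 68, 102 and 50 contacts in the 3 lists as above), and at ems, a homeobox gene of head development (16 kb, 108, 104 and 64). Another ended at HGTX, a homeobox gene of motor neurons (30 kb, 73, 133 and 54). prd, a segmentation gene, lay at a 28 kb loop with 42, 48 and 20 contacts, and bap, a homeobox gene of visceral muscle, at a 16 kb loop with 123, 108 and 41. In each of the 12 libraries pdm2, HGTX, ems and prd had at most 1 count and bap had 0. Sox100B, a SOX-family factor, was at a 26 kb loop and was expressed, at 19.0, 21.5 and 3.70 CPM (counts scaled by TMM to a fixed library total) in BEAF-32 KD, 9.77, 11.4 and 12.7 in Cp190 Chro KD, 9.91, 10.0 and 7.996 in BEAF-32 Dref KD and 17.8, 18.2 and 18.8 in WT. The BEAF-32 KD libraries lay on both sides of WT and the others below it, and no comparison was called, with edgeR adjusted p of 0.611, 0.216 and 0.0838. Its log2 fold change in BEAF-32 KD was −0.29, and 0.15 without replicate 3.

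From a list of 127 developmental regulators, many of them known Polycomb targets, 9 recurrent loops had a listed gene at both anchors. Besides pdm2 and the tsh to tio loop, these were 3 loops at the bab1 and bab2 pair, which encode related BTB-domain factors of leg and abdomen, and 1 each inside ss, abd-A, ct and lz. The bab1 to bab2 loop spanned 76 kb and had 179 contacts in Cp190 Chro KD and 114 in BEAF-32 Dref KD, at 3.49 and 4.22 times the background. Those within bab1 (20 kb, 168 and 92 contacts) and within bab2 (32 kb, 156 and 90) were in the same 2 lists. Each of these shared 1 anchor with the bab1 to bab2 loop and none with the other, and none of the 3 was in the BEAF-32 KD list.

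bab2 fell in all 3 knockdowns, and bab1 passed the test in BEAF-32 KD alone (log2 fold change −0.78 ± 0.25, edgeR adjusted p = 0.0325, against 0.326 and 0.434 in the others). bab2 had 195, 182 and 229 CPM in BEAF-32 KD, 201, 201 and 197 in Cp190 Chro KD, 182, 206 and 188 in BEAF-32 Dref KD, and 273, 265 and 259 in WT. No knockdown library reached a WT library. The log2 fold changes were −0.40 ± 0.09, −0.41 ± 0.09 and −0.47 ± 0.09 (SE), with edgeR adjusted p of 0.00567, 0.00482 and 0.00175.

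A list of 110 genes of neural adhesion and guidance also gave 9 loops with a listed gene at both anchors, each within a gene. klg, an immunoglobulin-family adhesion protein, had the loop in all 3 lists (24 kb, 48, 64 and 30 contacts). Those within Lar, a receptor tyrosine phosphatase of axon guidance (36 kb, 58 contacts in BEAF-32 KD and 65 in Cp190 Chro KD), beat-IIIa (28 kb, 14 and 27) and Nrg, the neuroglian adhesion protein (20 kb, 23 and 24), were in the lists without Dref RNAi. Those within Dscam1, the highly spliced receptor of neuronal self-recognition (24 kb, 133 contacts in Cp190 Chro KD and 56 in BEAF-32 Dref KD), Ten-m (18 kb, 116 and 54), kirre (18 kb, 140 and 65), Ptp99A (20 kb, 52 and 27) and Nlg4 (16 kb, 51 and 20) were in the other pair. klg had 0 to 3 counts in each library.

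The most contacts of any recurrent loop were at Kah. The loop joined the Hipk gene (chr3L:572001-574000), a kinase that acts in several growth pathways, to the promoter of Kah (chr3L:588001-590000), a Snail-family zinc finger factor, and had 705, 687 and 376 contacts in BEAF-32 KD, Cp190 Chro KD and BEAF-32 Dref KD. Against a high background that was 1.76, 1.80 and 2.03 times the expected value. Nearby, a 102 kb loop from Ptpmeg to CG13891 (chr3L:330001-332000 to chr3L:432001-434000) had 317, 471 and 202 contacts at 8.77, 8.39 and 7.66 times the background. Its left anchor was the bin used most often, in 3 recurrent loops. Other 16 kb loops with many contacts lay within Svil, a gene of the villin family (215 in BEAF-32 KD and 336 in Cp190 Chro KD), and within Tet, a DNA demethylase homolog (378 in Cp190 Chro KD and 154 in BEAF-32 Dref KD). The fewest contacts were in a 26 kb loop from Snx21 to Syt1 on 2L, with 12 in BEAF-32 KD and 13 in BEAF-32 Dref KD.

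The left end of 3L also held the longest recurrent loops. They ran from chr3L:330001-332000 to Con (4746 kb, 27 contacts in BEAF-32 KD and 23 in BEAF-32 Dref KD), from Cdc5 to Con (4712 kb, 236 in Cp190 Chro KD and 77 in BEAF-32 Dref KD) and from MED14 to shep (4578 kb, 56 in BEAF-32 KD and 74 in BEAF-32 Dref KD). A loop of 2540 kb from E(bx), a subunit of the NURF remodeller, to Pgant6, a glycosyltransferase gene, was in all 3 lists with 120, 169 and 68 contacts at 18.2, 17.4 and 14.9 times the background. Within the same end, a 240 kb loop from fwd to Hipk had 62, 185 and 93 contacts at 12.6, 19.5 and 23.2 times the background. These loops were broad, with 26, 34 and 19 pixels collapsed into the E(bx) to Pgant6 loop.

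Others of the longest loops were lone pixels over a background near 0. The loop of 3714 kb from 2R:1322001 to 2R:5036001 had 27, 40 and 28 contacts where 0.0253, 0.0392 and 0.0539 were expected. A loop of 3548 kb from mtt to CG8888, also on 2R, had 21, 94 and 37 contacts where 0.0338, 0.0621 and 0.0410 were expected. Ratios of observed to expected contacts on such denominators, from 519 to 1513, are not read as strength. Of the 10 loops of all 3 lists with the largest minimum ratio, 6 lay on 2R, among them a loop of 806 kb (2R:4830001 to 2R:5636001, 18, 25 and 15 contacts), 1 of 130 kb from CG17508 (2R:5606001 to 2R:5736001, 28, 79 and 35) and 1 of 90 kb from Ir41a (44, 147 and 64). Most of these 2R loops had anchors that shared a run of identical bases. The run was 71 bases at 3714 kb, 82 at 806 kb, 62 at CG17508, 31 at Ir41a and 254 between sxc and stw. It was 16 between mtt and CG8888. Mobile elements covered 1767 and 1298 bases of the 806 kb loop's anchor bins, and 1356 and 744 of the Ir41a loop's. The part of shared sequence in these contacts was not tested. At chromosome 4 the gw loop had 12, 50 and 15 contacts at 10.2, 15.6 and 8.56 times the background.

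Loops with both anchors inside a gene made up 21 of the 73 loops of all 3 lists. The most contacts among them were in trio, a guanine nucleotide exchange factor of axon guidance (16 kb, 225, 272 and 141 contacts in BEAF-32 KD, Cp190 Chro KD and BEAF-32 Dref KD). Others lay in Ih, a hyperpolarisation-activated channel (18 kb, 129, 172 and 67), in Mhcl, a myosin heavy chain-like gene (16 kb, 123, 162 and 68), and in boi, a Hedgehog co-receptor (16 kb, 96, 150 and 57). Eip75B, an ecdysone-induced nuclear receptor, had 59, 78 and 38 contacts, and Ets65A, an ETS-domain factor, 72, 112 and 47, both at 16 kb. These loops stood 1.85 to 3.23 times above the background, while Mob2 (24 kb) had 5.09, 4.02 and 4.38 and mim (26 kb) 7.69, 8.10 and 11.3.

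Anchors of recurrent loops were mostly in genes. A promoter, taken as 1 kb upstream of a start site to that site, lay at an anchor of 229 of 413 recurrent loops (55.4%) and of 52.2% of loops in 1 list. Promoter to promoter pairs were 67 (16.2%), promoter to gene body 131 (31.7%), and gene body to gene body 136 (32.9%). The remainder were promoter to intergenic (31), gene body to intergenic (33) and intergenic to intergenic (15). The same gene covered both anchors in 122 recurrent loops (29.5%) and 25.6% of loops in 1 list, and 29 (7.02%) joined a promoter to the body of its own gene, against 6.89%.

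Loops rarely shared an anchor. The 413 recurrent loops used 804 distinct bins, 21 bins were used by 2 or more loops, and 39 loops shared an anchor with another recurrent loop. Besides the tsh triangle and the chain of bab loops, the abd-A loop shared a bin with a second loop (chr3R:16826001-16828000), as did the Lar loop (chr2L:19726001-19728000).

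By sequence, anchor bins of recurrent loops were close to the rest of the genome. CGATA, a core that BEAF-32 binds, was in 88.8% of the 804 bins and 89.2% of all 66764 bins of 2 kb, on either strand. TATCGATA, the Dref response element, was in 3.73% and 5.46%. GAGAG was in 91.9% and 89.7%, and GCCAT in 98.5% and 97.6%. At least 6 matches within 150 bases, as in the tsh and CG11629 windows, were found in 7.21% of anchor bins and 7.28% of all bins. Apart from TATCGATA, which few bins held, these motifs were in most bins of this length, anchor or not.

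GC content and restriction sites did differ. The median GC content was 45.0% in anchor bins of recurrent loops, 43.5% in those of loops in 1 list alone and 41.9% in all bins. GATC, the DpnII site at which Hi-C fragments are cut, occurred on average 7.40 times in bins of recurrent loops, 6.61 times in bins of loops in 1 list and 5.58 times in all bins. More sites in a bin give more ligation ends, and the part of this in the contacts was not tested. Annotated mobile elements covered at least 500 bases in 2.11% of the anchor bins, in 4.86% of those of loops in all 3 lists, in 0.983% of those of loops in 1 list and in 6.56% of all bins.

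Some of the longer recurrent loops had shared sequence between their anchors. A run of at least 30 identical bases, on either strand, joined the anchors of 11 of 413 recurrent loops (2.66%), 6 of them in all 3 lists, and of 15 of 3221 loops in 1 list (0.466%). No recurrent loop of 30 kb or less had such a run. Of the 15 recurrent loops of 1000 kb or more 2 had a run, as did 4 of the 19 from 100 kb to under 1000 kb. The longest, 254 bases, joined sxc and stw on 2R at 130 kb, in bins with 1829 and 1854 bases of mobile elements, and that loop had 18, 44 and 19 contacts at 30.02, 29.1 and 30.4 times the background.

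TAD borders of the same knockdown lay near the anchors of recurrent loops more often than near those of other loops. Both come from the same Hi-C reads, so this is a description. A border was within 2 kb of at least 1 anchor bin in 39.3% of recurrent loops and 26.1% of loops in 1 list in BEAF-32 KD. The shares were 34.3% and 25.5% in Cp190 Chro KD, and 26.3% and 14.9% in BEAF-32 Dref KD. These shares count a loop when either of its 2 anchors was near. Of single anchors, 21.6%, 19.1% and 14.8% were as near for recurrent loops, and 14.3%, 13.7% and 7.74% for loops in 1 list. Beside those shares of anchors, 11.4%, 9.61% and 6.31% of all 2 kb bins were as near to a border in the 3 knockdowns. The border was rarely inside the anchor bin itself (5.73%, 7.36% and 9.26% of recurrent loops).

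Where a border was near, it lay outside the loop. In BEAF-32 KD, 188 of 524 anchors of recurrent loops (35.9%) had their nearest border within 7 kb on the side away from the other anchor, 27 (5.15%) on the side towards it and 16 (3.05%) in the bin. In Cp190 Chro KD the counts were 226, 34 and 32 of 734 anchors, and in BEAF-32 Dref KD 106, 16 and 27 of 540. The outer share was thus 35.9%, 30.8% and 19.6% for recurrent loops, against 23.3%, 17.3% and 12.6% for loops in 1 list. Both anchor middles of a recurrent loop lay in the same TAD in 80.9%, 80.7% and 79.3% of cases. For loops in 1 list, which had a longer median span, the shares were 73.3%, 65.2% and 79.7%.

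**Figure D4:**
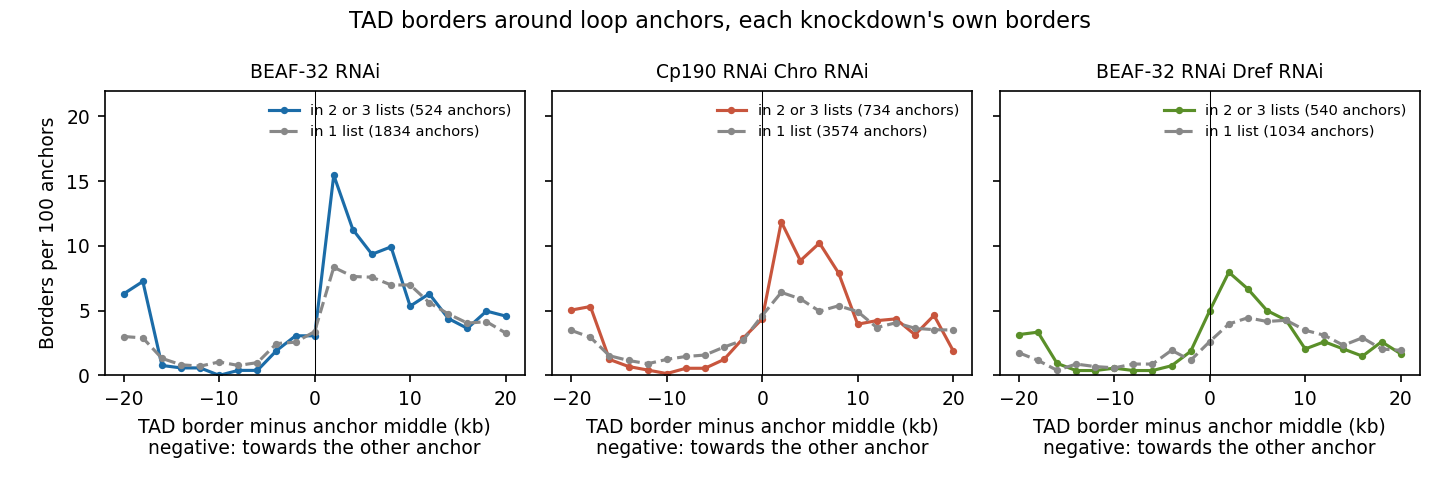
TAD borders per 100 anchors (y) in 2 kb steps of distance from the middle of the anchor bin (x, kb, negative towards the other anchor), for recurrent loops and loops in 1 list in each knockdown. Borders peak just outside the loop, where 35.9%, 30.8% and 19.6% of recurrent anchors have their nearest border within 7 kb.

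RNA-seq is independent of the rule, so genes at the anchors could be tested. A promoter lay at an anchor of a recurrent loop for 415 annotated genes. Of these, 376 were in the count files, 256 had at least 10 counts in total and were tested, and 69 had 0 counts in all 12 libraries. Only genes that passed this filter are counted. In bulk RNA, fewer cells that express a gene and less RNA per cell cannot be told apart. The level of the tested genes, in CPM per kb of exon, had a median of 14.7 in BEAF-32 KD, 15.3 in Cp190 Chro KD, 14.8 in BEAF-32 Dref KD and 15.2 in WT. Over the 10414 tested genes with an exon length the medians were 14.6, 14.4, 14.2 and 14.7, and 31.2% of the anchor genes against 26.3% of all were under 1 in WT.

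With all 12 libraries fitted, anchor genes changed about as often as genes in general. In BEAF-32 KD, 48 of 256 rose and 41 fell at an edgeR adjusted p under 0.05, or 18.8% and 16.02%, where 18.5% of all genes rose and 15.7% fell. In Cp190 Chro KD, 36 rose (14.1%) and 43 fell (16.8%), where 17.9% of all genes rose and 15.6% fell. In BEAF-32 Dref KD, 50 rose (19.5%) and 49 fell (19.1%), where 21.5% of all genes rose and 20.3% fell. The median log2 fold change of anchor genes was 0.07, 0.02 and 0.05, against 0.07, 0.02 and 0.03 over all genes. The 3 comparisons share the WT libraries, so their counts are not independent of each other.

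Larger changes gave the same picture. With a change of at least 2-fold as well, 31 anchor genes rose and 5 fell in BEAF-32 KD, where 11.6% of all genes rose and 2.65% fell. In Cp190 Chro KD 24 rose and 4 fell, where 9.91% of all genes rose and 2.48% fell, and in BEAF-32 Dref KD 31 rose and 5 fell, where 12.1% rose and 3.58% fell. At loops of all 3 lists 36 genes were tested. Of these 4 rose by at least 2-fold in BEAF-32 KD, 2 in Cp190 Chro KD and 4 in BEAF-32 Dref KD, and 0 fell by as much. By the adjusted p alone 7 rose and 5 fell in BEAF-32 KD (19.4% and 13.9%), 3 and 5 in Cp190 Chro KD (8.33% and 13.9%), and 8 and 6 in BEAF-32 Dref KD (22.2% and 16.7%), beside the shares of all genes given above for that rule.

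These counts moved with single libraries. BEAF-32 KD replicate 3 stood apart from its group, with a chi-square per degree of freedom of 97.6 and 101 to the other 2 replicates, where all other replicate pairs had 2.17 to 6.81. It entered the shared estimate of spread in every comparison. Without it the anchor genes called were 137, 141 and 157, in place of 89, 79 and 99, in BEAF-32 KD, Cp190 Chro KD and BEAF-32 Dref KD. That was 54.4%, 56.0% and 62.3% of anchor genes, against 46.1%, 57.5% and 61.1% of all genes. The count of 79 in Cp190 Chro KD became 48, 51 and 49 without its own replicate 1, 2 or 3. That was 19.1%, 20.1% and 19.4% of anchor genes, against 24.99%, 24.4% and 23.9% of all genes. Without WT replicate 1, 2 or 3 the count of 79 became 45, 50 and 47. These were 17.7%, 19.7% and 18.6% of anchor genes, against 22.9%, 22.9% and 22.6% of all genes. Anchor genes were thus called less often than all genes in each of these fits, and the difference was not tested. Without WT replicate 2 the count of 89 in BEAF-32 KD became 58. That was 22.8% of anchor genes against 23.8% of all genes. Of the reads in BEAF-32 KD replicate 3, 29.5% had no unique alignment, against 15.97 to 25.8% in the other libraries.

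At loops of all 3 lists, Kah, cv-2 and siz were called in the same direction in all 3 knockdowns. Kah had 12.4, 12.3 and 16.8 CPM in BEAF-32 KD, 4.098, 4.21 and 3.53 in Cp190 Chro KD, 5.36, 4.83 and 3.89 in BEAF-32 Dref KD, and 0.770, 0.642 and 1.00 in WT. Every knockdown library was above every WT library, and BEAF-32 KD was the highest group. The log2 fold changes were 4.07 ± 0.25, 2.27 ± 0.26 and 2.52 ± 0.26 (SE), with edgeR adjusted p of 9.24e-07, 7.59e-05 and 2.93e-05. Hipk, at the other anchor, fell in all 3 (−0.50 ± 0.08, −0.33 ± 0.08 and −0.46 ± 0.08, adjusted p at most 0.00644).

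cv-2 encodes a secreted protein that binds BMP ligands, and a 16 kb loop joined its gene body to its promoter with 50, 105 and 43 contacts in the 3 lists. It had 436, 441 and 991 CPM in BEAF-32 KD, 566, 524 and 539 in Cp190 Chro KD, 650, 665 and 699 in BEAF-32 Dref KD, and 94.98, 101 and 104 in WT. All knockdown libraries were at least 4 times the highest WT library. The log2 fold changes were 2.64 ± 0.26, 2.44 ± 0.26 and 2.75 ± 0.26, with edgeR adjusted p at most 4.73e-05, and the first was 2.13 without BEAF-32 KD replicate 3, whose level was the highest. siz, a guanine nucleotide exchange factor, rose less, by 0.44 ± 0.08, 0.77 ± 0.08 and 0.64 ± 0.08 (adjusted p at most 0.00181).

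At loops of all 3 lists 3 genes fell in all 3 knockdowns. gw, which encodes the GW182 protein of microRNA silencing, had 639, 569 and 509 CPM in BEAF-32 KD, 639, 571 and 572 in Cp190 Chro KD, 532, 549 and 560 in BEAF-32 Dref KD, and 861, 829 and 837 in WT. Its log2 fold changes were −0.56 ± 0.09, −0.50 ± 0.09 and −0.62 ± 0.09 (edgeR adjusted p at most 0.00122). Gnf1, a subunit of the replication factor C clamp loader, changed by −0.79 ± 0.21, −0.70 ± 0.21 and −0.97 ± 0.21 (adjusted p at most 0.0246), and the first was −0.51 without BEAF-32 KD replicate 3. csw, a tyrosine phosphatase of receptor kinase signalling, changed by −0.31 ± 0.07, −0.23 ± 0.07 and −0.30 ± 0.07 (adjusted p at most 0.0275). The groups did not overlap for gw or csw, nor for Gnf1.

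**Figure D5:**
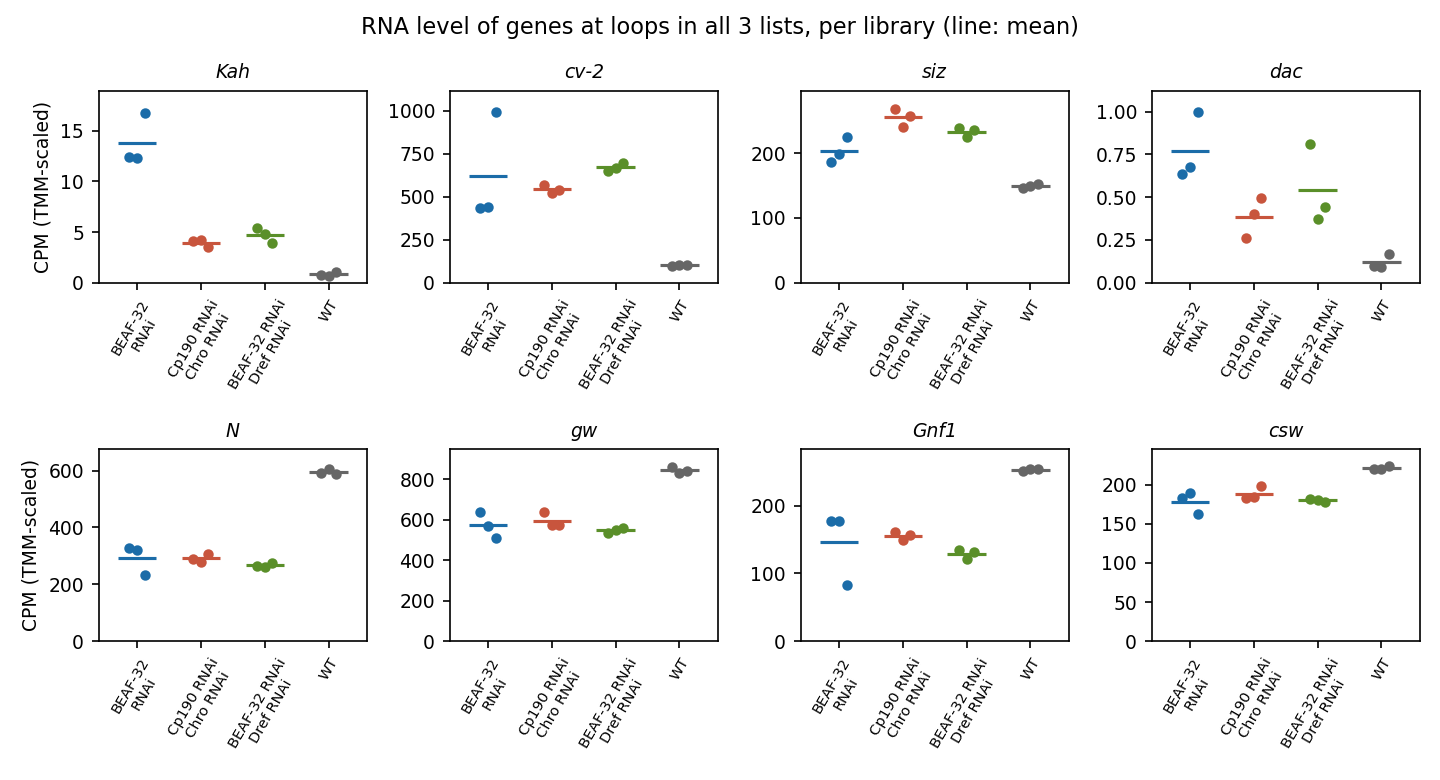
RNA level (TMM-scaled CPM, linear axes from 0) of 8 genes at loops of all 3 lists, with a point for each of 3 libraries per group and a line at the mean. Kah, cv-2, siz and dac lie higher in the knockdowns than in WT, and N, gw, Gnf1 and csw lie lower.

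Among anchor genes of loops in exactly 2 lists, the largest rises were in genes that WT cells expressed weakly. Pvf3, a PDGF and VEGF-related ligand with a 20 kb loop inside its gene, had 15.6, 15.6 and 36.8 CPM in BEAF-32 KD, 16.6, 15.7 and 13.0 in Cp190 Chro KD, 16.3, 14.9 and 17.9 in BEAF-32 Dref KD, and 2.89, 2.20 and 2.84 in WT. Its log2 fold changes were 3.08 ± 0.33, 2.51 ± 0.33 and 2.62 ± 0.33 (edgeR adjusted p at most 0.000221). Strn-Mlck, a myosin light chain kinase with promoters at both anchors of a 30 kb loop, had 43.3, 45.4 and 143 CPM in BEAF-32 KD, 125, 126 and 130 in Cp190 Chro KD, 162, 147 and 142 in BEAF-32 Dref KD, and 19.0, 26.9 and 23.7 in WT. It rose by 1.73 ± 0.38, 2.45 ± 0.38 and 2.69 ± 0.38, and the first was 0.93 without BEAF-32 KD replicate 3. In both genes that replicate was the highest of its group and the groups did not overlap with WT.

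Other rises of this kind were Hr51, a nuclear receptor of mushroom body neurons (3.28 ± 0.33, 2.49 ± 0.34 and 3.10 ± 0.33), stv, a co-chaperone (3.46 ± 0.57, 3.03 ± 0.58 and 2.84 ± 0.58), and lncRNA:CR45334 (3.28 ± 0.44, 2.91 ± 0.44 and 3.96 ± 0.43). nahoda rose as well (1.94 ± 0.68, 2.80 ± 0.64 and 3.26 ± 0.64), with 0.84 and an adjusted p of 0.302 in BEAF-32 KD without replicate 3. SmydA-8, a SET-domain gene, had 1.49 to 3.34 CPM in the knockdowns and 1 count in each WT library. hpRNA:CR32205, one of the pair with the shared run of 98 bases, rose by 2.95 ± 0.48, 2.08 ± 0.49 and 2.74 ± 0.49, and reads of the pair cannot be fully told apart. CG4259, at 0.902 to 1.48 CPM in Cp190 Chro KD, 1.11 to 1.61 CPM in BEAF-32 Dref KD and 1 count in all WT libraries together, was called in those 2 knockdowns (edgeR adjusted p of 0.0277 and 0.0188). Con, a cell adhesion protein, was called in BEAF-32 Dref KD (2.13 ± 0.77, adjusted p = 0.0444), and at 2.06 ± 0.76 in Cp190 Chro KD it had an adjusted p of 0.0567.

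robo2, a receptor for the guidance cue Slit, rose with little spread between libraries. Its promoter was at a 42 kb loop with 79 contacts in BEAF-32 KD and 144 in Cp190 Chro KD. It had 185, 170 and 152 CPM in BEAF-32 KD, 205, 197 and 199 in Cp190 Chro KD, 188, 191 and 185 in BEAF-32 Dref KD, and 74.7, 74.4 and 75.4 in WT. All knockdown libraries were above 2 times WT. The log2 fold changes were 1.18 ± 0.08, 1.42 ± 0.08 and 1.33 ± 0.08 (edgeR adjusted p at most 1.5e-06).

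The largest falls included sr and EcR. sr (stripe), an EGR-family factor of tendon cells at a 56 kb loop, had 0.955, 1.26 and 1.14 CPM in BEAF-32 KD, 0.959, 0.401 and 0.902 in Cp190 Chro KD, 2.12, 0.743 and 1.44 in BEAF-32 Dref KD, and 7.51, 6.51 and 6.68 in WT. It fell by 2.61 ± 0.37, 3.15 ± 0.38 and 2.23 ± 0.36 on the log2 scale (edgeR adjusted p at most 0.000647). EcR, the ecdysone receptor, with a 16 kb loop inside its gene, had 182, 181 and 264 CPM in BEAF-32 KD, 209, 184 and 212 in Cp190 Chro KD, 187, 192 and 195 in BEAF-32 Dref KD, and 351, 329 and 346 in WT. It changed by −0.71 ± 0.13, −0.76 ± 0.13 and −0.84 ± 0.13 (adjusted p at most 0.00178). The groups did not overlap with WT for either gene.

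Other named falls were smaller or were called in fewer knockdowns. ph-d, a subunit of the Polycomb complex PRC1 and the only gene of a list of architectural proteins at an anchor, changed by −0.52 ± 0.10, −0.42 ± 0.10 and −0.53 ± 0.10 (edgeR adjusted p at most 0.00828). Smr, a corepressor, changed by −0.71 ± 0.17, −0.52 ± 0.16 and −0.89 ± 0.17, and Sas-6, a centriole component, by −0.77 ± 0.17, −0.53 ± 0.17 and −0.74 ± 0.17. Incenp, of the chromosomal passenger complex, fell in Cp190 Chro KD (−0.92 ± 0.30, adjusted p = 0.0364) and BEAF-32 Dref KD (−1.17 ± 0.31, adjusted p = 0.0103), as did Poc1, of the centriole (−0.94 ± 0.26 and −0.99 ± 0.26). In BEAF-32 KD they had −0.76 and −0.58, with adjusted p of 0.073 and 0.0968, and without BEAF-32 KD replicate 3 these were −0.38 and −0.26 (adjusted p of 3.3e-08 and 0.00715). Acbp2, an acyl-CoA binding protein, fell in BEAF-32 KD by 3.83 ± 0.58 and in Cp190 Chro KD by 1.42 ± 0.44. CG3328 changed by −2.59 ± 0.50, −1.35 ± 0.45 and −1.35 ± 0.46, all called, and the first was −3.88 without BEAF-32 KD replicate 3. CG10011 changed by −0.79, −0.51 and −0.65 (adjusted p at most 0.00238). Adat1 and CG42340 fell in the 2 double knockdowns (adjusted p of 0.00781 to 0.024), AttD fell in BEAF-32 Dref KD (−2.19 ± 0.65), and CG6293 and Mct1 in BEAF-32 KD (−1.35 ± 0.39 and −1.15 ± 0.39). RpL30, a ribosomal protein, rose in BEAF-32 KD (0.37 ± 0.13, adjusted p = 0.0471). Without BEAF-32 KD replicate 3, Mct1 had −0.72, CG6293 −0.92 and RpL30 0.17 in BEAF-32 KD, and CG42340 had −0.84 (adjusted p = 0.0305) in place of −0.43 (0.381).

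Genes that covered both anchors of a recurrent loop were tested as a second set, chosen after the data had been seen. Of 125 such genes 108 were tested. In BEAF-32 KD 20 rose and 28 fell (25.9%), in Cp190 Chro KD 24 rose and 27 fell (25%), and in BEAF-32 Dref KD 19 rose and 32 fell (29.6%). Over all genes 18.5%, 17.9% and 21.5% rose. The share that fell over all genes was 15.7%, 15.6% and 20.3%. Among 420 tested genes that covered both anchors of a loop in 1 list it was 21.4%, 19.5% and 25%, and the difference between the sets of loops was not tested.

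N, the Notch receptor of lateral inhibition, was such a gene, singled out after its values were seen. Its 20 kb loop (chrX:3136001-3138000 to chrX:3156001-3158000) was in all 3 lists with 78, 141 and 69 contacts at 2.62, 3.16 and 3.46 times the background. N had 326, 320 and 233 CPM in BEAF-32 KD, 289, 278 and 307 in Cp190 Chro KD, 266, 260 and 273 in BEAF-32 Dref KD, and 590, 607 and 589 in WT. Every knockdown library was below every WT library. The log2 fold changes were −1.02 ± 0.11, −1.03 ± 0.11 and −1.16 ± 0.11 (edgeR adjusted p at most 5.19e-05).

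Falls of similar size were seen in other genes that held a recurrent loop, also named after their values were seen. nAChRalpha6, a nicotinic acetylcholine receptor subunit with an 84 kb loop in BEAF-32 KD and Cp190 Chro KD, had 6.26, 5.52 and 9.10 CPM in BEAF-32 KD, 11.1, 8.82 and 10.4 in Cp190 Chro KD, 9.80, 9.16 and 9.22 in BEAF-32 Dref KD, and 34.9, 28.7 and 29.98 in WT. Its log2 fold changes were −2.18 ± 0.18, −1.62 ± 0.17 and −1.73 ± 0.17 (edgeR adjusted p at most 4.37e-05). GlcAT-P, a glucuronyltransferase with a 16 kb loop, changed by −1.92 ± 0.32, −1.56 ± 0.31 and −2.10 ± 0.32, and Tet by −1.06 ± 0.14, −0.68 ± 0.14 and −0.96 ± 0.14 (adjusted p at most 0.00446 for both). Knockdown and WT libraries did not overlap for these genes. trio rose, by 0.29 ± 0.08, 0.39 ± 0.08 and 0.30 ± 0.08 (adjusted p at most 0.0202), and Eip75B was not called (0.12, 0.34 and 0.31, adjusted p of 0.704, 0.254 and 0.274). Without BEAF-32 KD replicate 3, Eip75B had −0.29 in BEAF-32 KD with an adjusted p of 0.00688, so that its direction turned.

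lz, a RUNX factor of blood and eye cells with a 16 kb loop in BEAF-32 KD (52 contacts) and Cp190 Chro KD (56), went the other way. It had 18, 8 and 9 counts in BEAF-32 KD, 4, 2 and 9 in Cp190 Chro KD, 3, 0 and 1 in BEAF-32 Dref KD, and 0 in each WT library. It rose in BEAF-32 KD (edgeR adjusted p = 0.00255) and Cp190 Chro KD (adjusted p = 0.0152), and in BEAF-32 Dref KD the adjusted p was 0.0782. ct, a homeobox gene of neurons with an 18 kb loop in the same 2 lists, fell in BEAF-32 KD (−0.55 ± 0.07, adjusted p = 0.000109) and BEAF-32 Dref KD (−0.22 ± 0.07, adjusted p = 0.0213).

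By list, 21 of 125 developmental regulators in the count files had a promoter or gene body at a recurrent anchor, and 14 were tested. In BEAF-32 KD 3 rose and 5 fell, in Cp190 Chro KD 2 rose and 3 fell, and in BEAF-32 Dref KD 2 rose and 4 fell. Over the whole list 64 were tested, and 18 rose and 11 fell, 14 and 8, and 16 and 11. Of neural adhesion and guidance genes 17 were at recurrent anchors and 14 were tested, of which 3 rose and 1 fell in BEAF-32 KD, and 4 rose and 1 fell in each of the other knockdowns. Over that whole list 80 were tested, and 20 rose and 20 fell, 22 and 13, and 21 and 15 in the same order. Of all genes, 18.5%, 17.9% and 21.5% rose and 15.7%, 15.6% and 20.3% fell. The median log2 fold change of those 14 was 0.01, 0.14 and 0.11.

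Apart from BEAF-32 in Cp190 Chro KD, the RNAi targets fell in every knockdown, including those not aimed at them. BEAF-32 had 41.0, 44.6 and 74.8 CPM in BEAF-32 KD, 59.4, 55.0 and 51.0 in BEAF-32 Dref KD, 69.1, 69.7 and 80.8 in Cp190 Chro KD and 88.6, 92.7 and 90.3 in WT. It fell in the first 2 (−0.77 ± 0.18 and −0.72 ± 0.18, edgeR adjusted p of 0.00777 and 0.0088) and not by the test in the last knockdown (−0.31 ± 0.18, adjusted p = 0.206). Cp190 fell in all 3 (−0.54, −0.54 and −0.56), as did Chro (−0.86, −0.75 and −1.01, the first −0.57 without BEAF-32 KD replicate 3) and Dref (−0.72, −0.50 and −0.67). Of 29 tested architectural proteins and cofactors, 19, 18 and 21 fell and 0 rose, where 15.7%, 15.6% and 20.3% of all genes fell and 18.5%, 17.9% and 21.5% rose. Of cell type markers, elav of neurons (694 to 1390 counts) and repo of glia (284 to 958) were detected, while brp, nSyb and Syt1 of mature neurons had at most 10 counts and the neuroblast genes wor, dpn and ase at most 1, 14 and 14. mira, another neuroblast gene, had 9 to 59 counts in the knockdowns and 399 to 428 in WT, and pros, of their daughter cells, had 65 to 106 in the knockdowns and 17 to 34 in WT. Neither gene's groups overlapped, and the part of such a difference in the results above was not tested. The blood cell genes srp (4954 to 9683) and Pxn (248 to 486) were detected. Hml (0 to 28) and NimC1 (0 to 5) were low, and He had 0 in all libraries. Of muscle genes, Act57B had 1319 to 4580 counts and Mhc 1 to 36. The fat body genes Lsp2 and Fbp1 had at most 15 and 1.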

How the data were processed

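Loop lists, TAD lists and RNA-seq counts of BG3 cells were used as deposited. Per the study's methods, the authors aligned Hi-C reads with BWA to dm6, merged 2 replicates per knockdown, and called loops with HiCCUPS (Juicer) at 2 kb bins. Each loop has its observed contacts, deposited as whole counts of read pairs, with the contacts expected from the donut of bins around it (a background signal), 4 q-values (FDR) from the authors' caller and the number of pixels merged. TAD borders carry a separation score in the deposited files, which was not used. The authors trimmed RNA-seq reads with Trimmomatic 0.39, used Bowtie2 2.3.4.1 within TopHat2 2.1.2 for alignment and Picard to take out duplicates, and deposited HTSeq counts per gene. In the study's listed commands the alignment of replicate 2 of each knockdown takes the first reads of replicate 1 with the second reads of replicate 2, and if the deposited counts came from those commands, these replicates share reads. Replicates 1 and 2 had a chi-square per degree of freedom of 2.93, 6.81 and 2.61 in BEAF-32, Cp190 Chro and BEAF-32 Dref knockdown. Reads with no feature (39.4 to 44.1%) or no unique alignment (15.97 to 29.5%) were left out. For the strand setting of the counting nothing was given in the sources used here, so overlapping and antisense genes are uncertain.

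Gene symbols were matched to RefSeq (12500 directly, 3928 by synonym, 299 unmatched). Counts of genes with at least 10 in total were scaled by TMM and fitted over all 12 libraries with edgeR 4.0.16 (R 4.3.3) by its quasi-likelihood test, each knockdown against the shared WT group, with Benjamini-Hochberg adjustment over 10545 genes. SE is approximate, computed by dividing the size of the log2 fold change by the root of the F statistic. The fit was tested on simulated data. Loops, bins, motifs and borders were counted with Python 3.11.15 and pandas 2.3.3. TAD borders fell within 4 bases of the midpoint between neighbouring DpnII sites of Release 6 in 92.7 to 95.01%.

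The recurrent loops and the gene lists were chosen with earlier results of these data known. Loops were named when they were in all 3 lists with the 10 largest minimum ratios, among the 3 longest, 3 of the shortest, 3 with most or 3 with fewest contacts, or had listed genes at both anchors. Genes were named when they were RNAi targets or listed. Named too were genes with a promoter at a loop of all 3 lists and called in 1 direction in all 3 comparisons. The 8 largest rises and falls of each comparison among genes with a promoter at an anchor were also named. Such rises and falls needed at least 10 counts in every library of the higher group and no overlap. Others are said to be named after their values were seen. Alternatives were other scaling, filters, DESeq2 1.42.0, libraries left out, a replicate block, and other anchor, border, motif and loop definitions.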

Additional observations from a re-analysis of the deposited data

How the results depend on the processing

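The count of 413 recurrent loops became 877 with both anchors within 1 bin, 1204 within 2 bins and 221 among loops of more than 1 pixel, and was 305 at an FDR of at most 0.01 and 372 at an observed over expected of at least 2. Among anchor genes, 89 were called in BEAF-32 KD, 79 in Cp190 Chro KD and 99 in BEAF-32 Dref KD. With each knockdown and WT fitted alone these became 39, 143 and 157. Other sets of genes differed in size from the main set of 256 tested genes. Of 542 tested genes with a start site within 2 kb of an anchor, 192, 178 and 218 were called. At loops of all 3 lists it was 12, 8 and 14 of 36. For genes over both anchors, an alternative chosen after seeing the data, it was 48, 51 and 51 of 108. In the same fit 34.2%, 33.6% and 41.8% of all genes were called. In the main set, leaving out 1 library gave 58 to 137, 45 to 141 and 68 to 157. The highest were without BEAF-32 KD replicate 3, which for the other comparisons was left out after seeing the data. The share of all genes called moved too, to 15.02%, 60.8% and 66.0% with each pair of groups alone. With 1 library left out it was 23.6 to 46.1%, 22.6 to 57.5% and 31.9 to 61.1%. With a promoter of 250 bases, 47.0% of recurrent loops had a promoter at an anchor, in place of 55.4%. A border inside the anchor bin was found for 5.73%, 7.36% and 9.26% of recurrent loops and a strong TAD border within 2 kb for 20.2%, 16.3% and 7.78%. In 4 kb around the bin, CGATA was in 99.0%, TATCGATA in 9.20%, GAGAG in 99.4% and GCCAT in 99.9%. Other scaling, DESeq2 (100, 87 and 104 genes) and other filters on low counts stayed within 1.5 times of the counts. With DESeq2 that was 39.1%, 34.0% and 40.625% of anchor genes, against 36.6%, 37.1% and 43.8% of all genes.

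The replicate numbers did not pair the samples: deviations of same-numbered libraries correlated at −0.080 to 0.034. With the replicate block 80, 68 and 89 anchor genes were called. That was 31.25%, 26.6% and 34.8% of anchor genes, against 30.6%, 31.3% and 39.6% of all genes. Of 38, 36 and 38 calls of named genes, 2, 2 and 1 were lost under the block, 14, 0 and 0 with each knockdown and WT fitted alone, and 1 to 5, 0 to 12 and 0 to 5 when a library was left out. None of these calls reversed. The cause of these changes was not tested. Contact counts under about 20 leave individual loops imprecise, and no list has a replicate.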
